A study of Mus musculus with 6 samples.

Results

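The transcripts described here encode the proteins that move calcium into, out of and around the sarcoplasmic reticulum of heart muscle. They are the pump Atp2a2 with its peptide inhibitors Pln and Sln, the release channel Ryr2 with the proteins Casq2, Trdn, Asph and Hrc that sit at or behind it, the junction protein Jph2 and the sodium-calcium exchanger Slc8a1. Members were set as 10 gene symbols, and each was read from probe sets annotated to that symbol alone. All 10 were measured, of 19938 genes that have such a probe set, by 30 of the 35557 probe sets on the array. Probe set values are log2 expression, so that a difference of 1 is a change by a factor of 2.

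RNA came from whole hearts of mice aged 8 weeks, 3 Ppif-/- and 3 wild-type (WT), on 1 Affymetrix Gene 1.0 ST array per heart. Ppif-/- mice carry a global knockout of Ppif, which encodes cyclophilin D, a mitochondrial matrix protein that favours opening of the permeability transition pore. Because the knockout is global, no cell type in these hearts keeps the gene. The knockout line was made on Sv129 and later crossed back to C57BL/6, the strain of the WT mice. The series looked for transcripts that differ before the heart muscle fails.

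In a resting heart cell, calcium is held in the lumen of the sarcoplasmic reticulum, bound to calsequestrin. Each action potential lets a little calcium in through the L-type channel, which opens the ryanodine receptor across a narrow cleft and releases the store. The muscle relaxes as the pump SERCA2a returns calcium to the store and the exchanger expels the rest, and phospholamban slows the pump until it is phosphorylated. The mouse heart relies mainly on the pump.

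Ppif was 6.00, 6.25 and 6.44 in the Ppif-/- hearts and 11.44, 11.28 and 11.49 in the WT hearts, as the labels state. Cardiomyocyte markers were bright in every heart, with the mean log2 level of all 10 markers at 13.48 to 13.49 in Ppif-/- and 13.44 to 13.49 in WT hearts, and 0 of the 10 passed in limma (0 at an unadjusted p under 0.05). Heart 2 of the WT group stood apart for the 10 members. It was the lowest of the 6 hearts for 7 of the 10 members, against 22.0% of all 23410 tested probe sets, and below the other WT hearts for 9 of 10, against 38.0%. Over all tested probe sets the median gap between this heart and the other WT hearts was -0.0019, and over the members -0.21. The arrays were normalised to each other, which holds such a median over all probe sets near 0. The wider calcium lists described below were mixed in this heart. Its mean log2 level was the lowest of the WT hearts for release and store genes (9.02 against 9.13 and 9.10) and junction genes (8.81 against 8.88 and 8.90). It lay between the other WT hearts for pump regulators (9.67 against 9.65 and 9.69) and for exchangers and pumps (7.82 against 7.83 and 7.77). WT heart 2 was picked out after its values were seen. Differences of the brightest probe set of each gene, and of pairs of these, are given both ways where they moved by over 1.5 times without it. Differences of other probe sets are given with all hearts only.

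In limma, 0 of the 10 members passed an adjusted p of 0.05, a threshold that 1.09% of tested probe sets passed (0.624% higher and 0.461% lower in Ppif-/- hearts). At an unadjusted p under 0.05 there were 2 members, Casq2 higher and Ryr2 lower in Ppif-/- hearts, where 12.9% of tested probe sets were called (6.10% higher and 6.81% lower). The groups did not overlap for 3 members, Casq2 and Slc8a1 (higher) and Ryr2 (lower), against 19.8% of tested probe sets (9.21% higher and 10.6% lower). These shares are near the background for so few genes, and nothing is read from the counts. The median absolute difference was 0.08 over the members, as over all tested probe sets, and the signed median was 0.07.

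**Figure D1:**
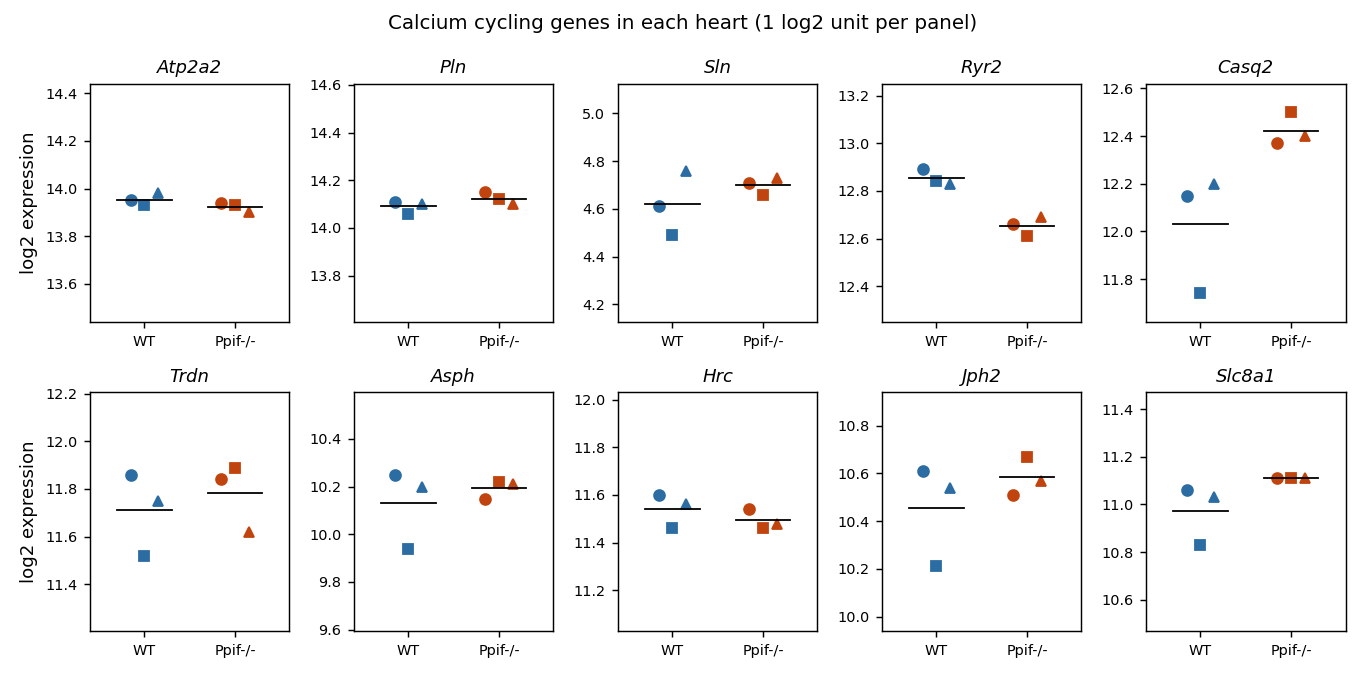
Log2 expression of the 10 genes in each heart, by the brightest probe set of each gene; circles, squares and triangles are hearts 1, 2 and 3 of each genotype, bars are group means, and every panel spans 1 log2 unit. Ryr2, Casq2 and Slc8a1 show separated groups, and the WT square lies lowest in 7 panels.

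The pump and its main inhibitor were nearly level between genotypes. Atp2a2, which encodes SERCA2, was 13.94, 13.93 and 13.90 in the Ppif-/- hearts and 13.95, 13.93 and 13.98 in the WT hearts. The groups overlapped, and the difference of -0.03 ± 0.06 (SE) had a 95% interval from -0.17 to 0.11, or 0.886- to 1.08-fold (limma adjusted p = 0.888). Pln, which encodes phospholamban, was 14.15, 14.12 and 14.10 in Ppif-/- against 14.11, 14.06 and 14.10 in WT hearts. These values also overlapped, and the interval of the difference (0.04 ± 0.06) ran from -0.11 to 0.18 (adjusted p = 0.869), with a difference of 0.02 without WT heart 2. Both probe sets are among the brightest of the array, with 0.0812% and 0.0299% of tested probe sets brighter, and array maxima were 14.54 to 14.63. Whether differences are compressed at such brightness was not tested.

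Sarcolipin, the pump inhibitor that in mouse heart is mainly atrial, was near the floor. Sln read 4.71, 4.66 and 4.73 in the Ppif-/- hearts and 4.61, 4.49 and 4.76 in the WT hearts, with the WT values on either side of the Ppif-/- ones. Its difference was 0.08 ± 0.08 (interval -0.11 to 0.27, adjusted p = 0.758) and 0.01 without WT heart 2, and 80.7% of tested probe sets were brighter. Array medians were 6.03 to 6.11. Of the 10 atrial markers, 3 were below the median on every array: Myl7, the atrial regulatory light chain (4.86 to 5.28), Bmp10, an atrial growth factor (4.30 to 5.04), and Fgf12 (5.27 to 5.56). Dkk3 lay near the median (5.87 to 6.20). The other 6 were above it, among them the atrial light chain Myl4 (6.42 to 7.38), the connexin Gja5 (7.46 to 7.90), Stard10 (8.54 to 8.74), the transcription factor Tbx5 (8.29 to 8.97) and the potassium channel Kcnj3 (8.80 to 9.09), several of which other heart cells also make. Of the 10, 0 passed in limma, with 1 at an unadjusted p under 0.05, where 12.9% of tested probe sets were called. That one was the natriuretic peptide Nppa, which stressed ventricle also makes. It read 12.17, 12.06 and 11.97 in Ppif-/- and 11.24, 11.70 and 11.23 in WT hearts (0.68 ± 0.13, limma adjusted p = 0.0681). Nppa passed in 4 of 15 alternative fits, among them the one without WT heart 2 (0.83, limma adjusted p = 0.0138). Without any 1 of the other hearts it did not pass (limma adjusted p = 0.161 to 0.195). Over the whole list the mean log2 level was 7.32 to 7.45 in Ppif-/- and 7.25 to 7.32 in WT hearts, and how much atrium each sample held was not tested.

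The release channel was lower and its store protein higher in every Ppif-/- heart. Ryr2, the ryanodine receptor through which the store empties, was 12.66, 12.61 and 12.69 in the Ppif-/- hearts and 12.89, 12.84 and 12.83 in the WT hearts. The groups were apart by more than the range within either, and the hearts of a genotype agreed closely (SD 0.039 and 0.032). Ryr2 was 1.14-fold lower (-0.19 ± 0.06, interval -0.34 to -0.05), with an unadjusted limma p of 0.0167 that did not pass over all probe sets (adjusted p = 0.248). It passed only where the prior variance was let vary with brightness (adjusted p = 0.0392), and without any 1 heart the difference stayed between -0.21 and -0.17 (adjusted p = 0.352 to 0.479).

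Casq2, cardiac calsequestrin, the main calcium buffer of the store, was 12.37, 12.50 and 12.40 in the Ppif-/- hearts and 12.15, 11.74 and 12.20 in the WT hearts. Every Ppif-/- heart lay above every WT heart, and WT heart 2 was far below the other WT hearts. The difference of 0.39 ± 0.12 (interval 0.11 to 0.68, 1.31-fold) was exceeded in size by 4.03% of tested probe sets. Its unadjusted limma p of 0.0133 did not pass over all probe sets (adjusted p = 0.226). Without WT heart 2 it was 0.25 (adjusted p = 0.275). The skeletal isoform Casq1, chosen after its value was seen, read 7.76, 8.53 and 7.71 in Ppif-/- and 7.94, 7.29 and 7.55 in WT hearts. Its groups overlapped (0.41 ± 0.24, adjusted p = 0.537), and WT heart 2 was again the lowest. The difference was 0.25 without WT heart 2 and 0.14 without Ppif-/- heart 2, the highest.

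The start regions of Casq2 and Ryr2 are shown because these were the members with the smallest p and opposite directions. Each window holds 250 bases before and 50 after the RefSeq start (GRCm38.p6), 5′ to 3′ on the gene's strand, with capitals for matches to the MEF2 consensus, the CArG box, TATAAA or GGGCGG on either strand.
Casq2: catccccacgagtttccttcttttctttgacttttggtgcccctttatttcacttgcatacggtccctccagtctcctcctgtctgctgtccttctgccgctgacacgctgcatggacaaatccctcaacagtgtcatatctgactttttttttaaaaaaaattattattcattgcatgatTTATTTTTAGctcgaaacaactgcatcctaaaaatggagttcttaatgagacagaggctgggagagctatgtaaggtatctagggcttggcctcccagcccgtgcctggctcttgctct
Ryr2: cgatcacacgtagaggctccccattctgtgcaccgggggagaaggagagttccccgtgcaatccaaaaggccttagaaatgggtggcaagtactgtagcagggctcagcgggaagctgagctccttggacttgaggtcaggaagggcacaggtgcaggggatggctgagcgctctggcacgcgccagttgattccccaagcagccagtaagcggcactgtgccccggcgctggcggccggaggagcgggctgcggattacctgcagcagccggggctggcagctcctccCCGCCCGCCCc
The Casq2 window (chr3:102086165-102086464, plus strand) holds 1 MEF2 consensus match, at bases 182 to 191 of the window, which reads on both strands. Such a match occurs in 3.19% of the 32851 windows of the same length. The Ryr2 window (chr13:12106896-12107195, minus strand) holds 2 overlapping GGGCGG matches on the opposite strand, at bases 290 to 295 and 294 to 299, a motif found in 35.7% of windows. Neither window holds a CArG box (1.63% of windows) or TATAAA (13.6%). The GC content was 44.7% for Casq2 and 65.3% for Ryr2, with a median of 52.7% over all windows. RefSeq windows were found for 6 of the 10 members, and the MEF2 consensus was matched in the window of Casq2 alone among the 6. These matches describe letters and are not measured binding.

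Triadin links calsequestrin to the release channel, and its gene was read by 19 probe sets, of which 18 carry a single transcript record. The brightest read 11.84, 11.89 and 11.62 in the Ppif-/- hearts and 11.86, 11.52 and 11.75 in the WT hearts. The groups overlapped, with a difference of 0.07 ± 0.11 (interval -0.18 to 0.33, adjusted p = 0.847) that was -0.02 without WT heart 2. The probe set with 5 transcript records read 11.28, 11.32 and 11.24 in Ppif-/- and 11.39, 11.27 and 11.30 in WT hearts (-0.04 ± 0.07).

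Across the 19 Trdn probe sets, 14 differences were above 0 and 5 below, from -0.05 to 0.25 with a median of 0.10. In limma 0 of the 19 passed (smallest unadjusted p = 0.165, smallest adjusted p = 0.575), and 0 had groups that did not overlap. The 3 hearts of a genotype spanned a median range of 0.40 over the 38 such ranges, and at most 1.61. The lowest heart was WT heart 2 for 10 probe sets, Ppif-/- heart 3 for 7 and WT heart 3 for 2. In that order, these hearts were lowest for 22.0%, 19.1% and 13.0% of all tested probe sets. Among those with a mean log2 of at least 6 the shares were 22.3%, 25.3% and 13.0%. Ppif-/- heart 3 and WT heart 2 were together the lowest pair in 11 of the 19, against 5.95% of all tested probe sets. The hearts that read lowest thus belonged to both genotypes. The 19 probe sets share a gene and the same 6 arrays, so they are not independent, and which exons each reads is not used here.

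**Figure D2:**
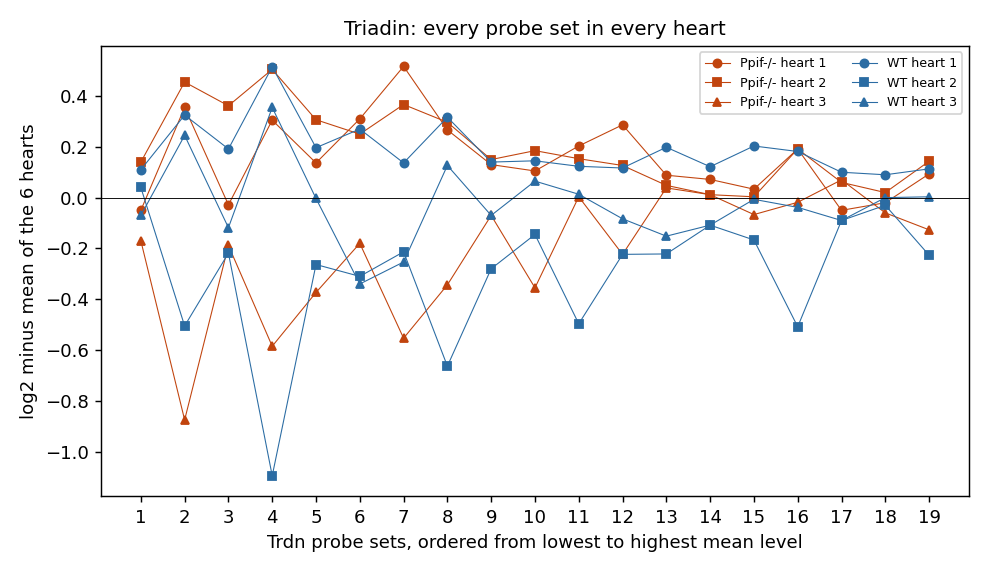
Each of the 19 triadin probe sets in each heart, as log2 value minus the mean of the 6 hearts, ordered by mean level from 2.90 to 11.74. Ppif-/- heart 3 and WT heart 2 fall below 0 at most probe sets, and spread is wider at many of the dimmer probe sets than at the brightest.

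The remaining proteins of the release complex did not separate. Asph, the locus of junctin, which anchors calsequestrin beside triadin, and also of aspartyl hydroxylase and junctate, was read by 1 probe set with 20 transcript records, so that these products cannot be told apart. It read 10.15, 10.22 and 10.21 in Ppif-/- and 10.25, 9.94 and 10.20 in WT hearts. WT heart 2 alone was low, and the difference of 0.06 ± 0.09 (interval -0.16 to 0.27, adjusted p = 0.854) became -0.04 without it. Hrc, the histidine-rich calcium-binding protein of the lumen, read 11.54, 11.46 and 11.48 in Ppif-/- and 11.60, 11.46 and 11.56 in WT hearts, with overlapping groups (-0.05 ± 0.07, interval -0.21 to 0.11, adjusted p = 0.841; -0.09 without WT heart 2).

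Junctophilin 2 tethers the reticulum to the T-tubule, so that calcium entry and release face each other. Jph2 read 10.51, 10.67 and 10.57 in the Ppif-/- hearts and 10.61, 10.21 and 10.54 in the WT hearts. All Ppif-/- hearts lay within the range of the WT hearts or just above it, and WT heart 2 was lowest. The difference of 0.13 ± 0.11 (interval -0.13 to 0.39, adjusted p = 0.69) was 0.01 without WT heart 2. A second Jph2 probe set gave 0.17, with 9.82, 9.82 and 9.85 against 9.75, 9.39 and 9.83. WT heart 2 was again the lowest, and this second difference was not recomputed without it.

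The exchanger Slc8a1 (NCX1), which carries calcium out across the sarcolemma, was 11.11 in each of the 3 Ppif-/- hearts and 11.06, 10.83 and 11.03 in the WT hearts. The groups did not overlap, yet the difference of 0.14 ± 0.08 (interval -0.05 to 0.32, adjusted p = 0.519) did not pass, and it was 0.07 without WT heart 2. A second, dimmer Slc8a1 probe set read 8.36, 8.22 and 8.08 in Ppif-/- and 8.31, 8.36 and 8.24 in WT hearts, and pointed the other way (-0.09). No direction is therefore given for the exchanger gene as a whole.

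**Figure D3:**
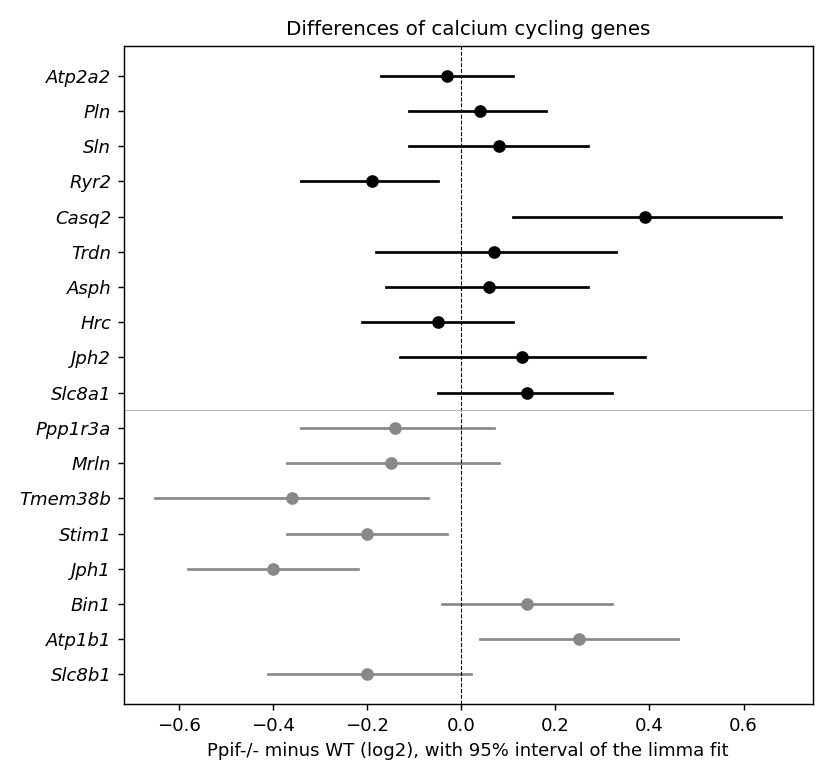
Differences between Ppif-/- and WT hearts on the log2 scale with 95% intervals of the limma fit, members in black and 8 genes of the wider calcium lists in grey. Intervals of 8 of the 10 members include 0, and those of Ryr2, Casq2, Tmem38b, Stim1, Jph1 and Atp1b1 do not.

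Pairs of members were also set against each other within each heart. Subtracting log2 values of different probe sets gives no ratio of molecules, but the shift of that difference between genotypes shows unequal change. Casq2 minus Ryr2 was -0.29, -0.12 and -0.29 in the Ppif-/- hearts and -0.74, -1.10 and -0.63 in the WT hearts. The groups were apart, with a shift of 0.59 (0.45 without WT heart 2). With Casq2 higher and Ryr2 lower and no overlap in either gene, this separation was fixed in advance. It restates the 2 single-gene differences and adds nothing to them.

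Phospholamban against its target moved little. Pln minus Atp2a2 was 0.22, 0.19 and 0.21 in Ppif-/- against 0.16, 0.13 and 0.12 in WT hearts, a shift of 0.07. The groups did not overlap although those of each gene did. After quantile normalisation the shift was 0.03 with an exact permutation p of 0.3, so the groups then overlapped. Slc8a1 minus Atp2a2 shifted by 0.17 with groups apart (0.11 without WT heart 2). That pair holds for the brighter Slc8a1 probe set only. The dimmer one pointed the other way (-0.09), so no direction is given for the gene here either. Sln minus Atp2a2, with Sln near the floor, shifted by 0.11 with groups overlapping (0.06 without WT heart 2). The 2-sided exact permutation p was 0.1 for each pair but Sln minus Atp2a2 (0.3), and 0.133 and 0.3 after adjustment over the 4 pairs. With 3 hearts against 3, 0.1 is the smallest p that this test can give, so it could not pass 0.05.

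**Figure D4:**
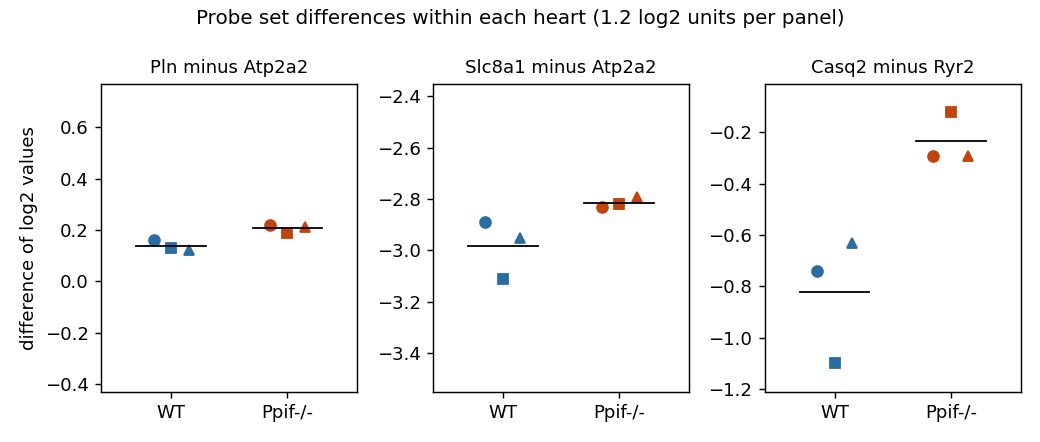
Difference of the log2 values of 2 probe sets within each heart, for Pln and Slc8a1 against Atp2a2 and for Casq2 against Ryr2; symbols as hearts 1, 2 and 3, bars as group means, 1.2 log2 units per panel. The Casq2 minus Ryr2 groups lie 0.59 apart, which follows from the opposite differences of the single genes, and the Pln minus Atp2a2 groups 0.07 apart. Slc8a1 is read from its brighter probe set, and its dimmer one differed in the other direction.

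Other genes of the pathway were taken from 4 lists of 64 genes, of which 56 were measured by a probe set of their own and the others were not analysed here. In limma 0 of the 56 passed an adjusted p of 0.05. At an unadjusted p under 0.05, 1 was higher (6.10% of tested probe sets) and 4 lower (6.81%), and the median difference was -0.03. Among regulators of the pump and phospholamban, 0 of 13 were at an unadjusted p under 0.05. The smallest p there belonged to the glycogen-targeting phosphatase subunit Ppp1r3a (-0.14, and -0.06 without WT heart 2) and to myoregulin, Mrln (-0.15, and -0.10 without that heart), a micropeptide that inhibits the pump in skeletal muscle. Of 19 release and store genes, 3 were lower at that level. Tmem38b, which encodes the counter-ion channel TRIC-B, differed by -0.36 ± 0.13 (adjusted p = 0.283; -0.22 without WT heart 2). That is the brighter of its 2 probe sets, and the dimmer one is not given here. Stim1, the sensor of store calcium, differed by -0.20 ± 0.07 (adjusted p = 0.292). The other was Clcc1, a chloride channel protein of the reticulum (-0.20, and -0.13 without WT heart 2), named because the count is 3. Among 8 further exchangers, pumps and related genes, the sodium pump subunit Atp1b1 differed by 0.25 ± 0.09 (adjusted p = 0.302), and the mitochondrial sodium-calcium exchanger Slc8b1 by -0.20 ± 0.09.

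Junctophilin 1, the relative of Jph2 best known from skeletal muscle, had the smallest p of these lists. Jph1 read 8.97, 9.05 and 9.06 in the Ppif-/- hearts and 9.44, 9.52 and 9.32 in the WT hearts. Every Ppif-/- heart lay below every WT heart, here with WT heart 2 the highest. It was 1.32-fold lower (-0.40 ± 0.08, interval -0.58 to -0.22) and narrowly missed the threshold (adjusted p = 0.0612). A second Jph1 probe set gave -0.39 ± 0.08 (adjusted p = 0.0795), from 8.47, 8.60 and 8.60 against 8.88, 9.08 and 8.89. Jph1 passed on the brighter probe sets alone (0.0309), with arrays centred on their medians (0.0497), with array weights (0.0458) and where the prior variance followed brightness (0.022), and in the other 11 alternative fits it did not. Among the 16 junction genes it was the 1 gene at an unadjusted p under 0.05 (12.9% of tested probe sets), and the membrane-bending protein Bin1 was next (0.14 ± 0.08).

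Markers of other cells moved with genotype in part. Smooth muscle markers had a mean log2 level of 8.73 to 8.81 in Ppif-/- and 8.94 to 9.09 in WT hearts, with 1 of 8 lower in limma (Tagln, -0.51 ± 0.08, adjusted p = 0.0332), where 0.461% of tested probe sets were lower and 0.624% higher. At an unadjusted p under 0.05, 3 of the 8 were lower and 1 higher, against 6.81% and 6.1% of tested probe sets. Groups did not overlap for 6 of them, against 19.8% of tested probe sets. Skeletal muscle markers lay at 6.93 to 7.02 and 7.06 to 7.10, with 1 of 12 lower, Myl1 (-1.44 ± 0.10, adjusted p = 0.000555), and 5 of 12 below the array median on every array. The median difference of the 12 was -0.01, with 5 above 0 and 7 below. Fibroblast markers were at 9.40 to 9.60 and 9.25 to 9.52 with 1 of 9 lower (Pdgfra, -0.44 ± 0.06). The differences of the 9 went both ways, with 4 above 0 and 5 below. Macrophage and blood markers were at 7.81 to 7.92 and 7.73 to 7.80 with 1 of 7 higher (Cd68, 0.56 ± 0.09), and 3 of the 7 differences were below 0, among them Cd163 at -0.53, chosen after its value was seen. Endothelial markers were at 9.97 to 10.10 and 10.05 to 10.10 with 0 of 9 passing (2 at an unadjusted p under 0.05, against 12.9% of tested probe sets). The 5 adipose markers were all below the array median. Without any 1 heart, under a replicate block or with the whole table tested, the calls of Tagln, Pdgfra and Cd68 were lost (adjusted p = 0.0537 to 0.145). The part of these cells in the calcium gene values was not tested, and in whole hearts fewer cells of a type and less RNA per cell cannot be told apart.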

How the data were processed

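Deposited log2 values, 1 per probe set and array, were made by the authors with RMA per the submitters' processing notes; RMA corrects background, normalises between arrays and summarises probes. Software version, genome build and filters were not given in the sources used here. Columns without a sample numbered 0, and 0 array pairs were identical. Gene names came from the platform annotation, updated by Entrez identifier. Of 35557 probe sets, the 23410 with at least 1 symbol were fitted in R 4.3.3 by limma 3.58.1 with no covariate (functions lmFit and eBayes), and 2-sided p-values were adjusted over all of them by Benjamini-Hochberg (threshold 0.05). The procedure was tested on simulated data. Each gene was read from its single-symbol probe set with the highest mean. Differences are Ppif-/- minus WT. The labels number separate hearts but do not name separate animals, so p-values measure the spread between these samples.

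Members and lists were chosen with earlier results of these data known. The text names all members, Ppif, the genes past the threshold in each list or, in the calcium lists, the 2 with the smallest p, and the 10 atrial markers. Genes outside this rule are said to be so. Alternatives were a replicate block, a filter at a mean log2 of 6, other probe sets, other scalings, other variance models and leaving out each heart. The number of arrays limits the precision, and no detection calls or scan dates were used.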

Additional observations from a re-analysis of the deposited data

How the results depend on the processing

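Of 169 member differences recomputed under the alternatives, 159 kept their direction and their side of the threshold. Ryr2 passed with a variance trend, which made the count of members past the threshold 1 instead of 0. Directions reversed for Atp2a2 with quantile normalisation (0.02), for Trdn and Asph without WT heart 2 (-0.02 and -0.04; leaving out each heart in turn gave -0.02 to 0.16 and -0.04 to 0.12), for the second Slc8a1 probe set (-0.09), and for 5 other Trdn probe sets (-0.02, -0.04, and -0.05 in 3). The cause was not tested. The count of wider calcium genes was 1 (Jph1) on brighter probe sets, with centred arrays, with array weights and with a variance trend, instead of 0. Over all probe sets the count of 254 became 402 on brighter probe sets, 131 when the whole table was tested, 386 with array weights and 453 with a variance trend, and leaving out 1 heart gave 131 to 171. Under a replicate block it was 160, the adjusted p of Casq2 was 0.302 and that of Ryr2 0.378, and the exact sign-flip p of each of the 4 pairs was 0.25. A block cannot move a mean difference in this balanced design. Same-numbered hearts did not deviate together (correlations across probe sets of -0.077, -0.061 and 0.118), so the numbers were not taken as pairs. The sarcolipin probe set falls below the filter on brightness, so it has no value there. RMA values near the floor, as for sarcolipin, carry little information on differences.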

Other observations

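Some other transcripts, chosen here after their values were seen, also read lowest in WT heart 2. The reticulum chaperone Hspa5 read 11.86 in WT heart 2 and 12.19 to 12.38 in the other 5 hearts. The collagen Col3a1 read 8.98 there and 9.78 to 9.99 elsewhere, and the matrix protein Postn 7.37 against 7.89 to 8.44. Other fibroblast markers were not low in that heart. Dcn was highest there (12.83 against 12.67 to 12.75), and Tcf21 (7.69 against 7.36 to 7.70) and Fbln2 (9.22 against 9.04 to 9.27) lay within the range of the other hearts. The kinase Camk2d, which phosphorylates phospholamban and the release channel, read 10.29 in that heart and 10.64 to 10.79 in the others. In the other direction, Tmem38b read 9.46 in WT heart 2 and 8.74 to 9.04 elsewhere.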
